A study of Homo sapiens with 6 samples.

Results

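The genes described here are p53 target genes, chosen from a list of 33 symbols of p53 targets and pathway members and looked up by symbol in the deposited gene tables. Of these, 31 had a row among the 21961 symbols and 30 passed a filter on low counts and were tested. TRIM22L and EDA2R had no row under these symbols, and EDA2R enters only the promoter windows below. SPATA18, a factor of mitochondrial quality control, had 0, 2 and 0 reads in one group and 4, 0 and 6 in the other and was not tested. The libraries were made from HaCaT, a spontaneously immortalised human keratinocyte line, with 3 libraries in each of 2 groups titled mod and Nvs. The design text sets UVB-irradiated cells against irradiated cells that were also BVNV-treated, and the series title names nanovesicles from Beta vulgaris, the beet. In the sample labels, however, the treatment of the mod libraries is UV-induced and that of the Nvs libraries is control, with no vesicle named, so the groups are called mod and Nvs and all differences are Nvs minus mod. UVB dose, vesicle dose and sampling time were not found in the labels, and nothing states that the replicates came from separate cultures, so the p-values measure the spread between libraries, which may be technical.

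The transcription factor p53 accumulates when DNA is damaged, as by UV light, and switches on genes that halt the cell cycle, repair DNA, adjust metabolism or start apoptosis. Several of its targets, with MDM2 the best known, act back on p53 to end the response. Many of these genes also answer to other factors, among them the keratinocyte factor p63.

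A p53 response element consists of a pair of half-sites, and the elements found in the start regions of the listed genes are shown because they are the sequence feature that defines a direct target. RefSeq promoter windows (GRCh38.p14, from 250 bases before to 50 after a transcription start) were present for 25 of the 33 genes, in 38 windows. Both strands were covered, since the p53 half-site consensus of 10 bases is its own reverse complement. Pairs with a spacer of at most 13 bases, an intact C and G core in both half-sites and at most 2 mismatches in all were found for 4 of the 25 genes (16%), against 3.62% of the 27305 genes in the table. The listed genes have more windows each than the average gene. In the sequences below, capitals mark bases that match the half-site consensus, and lower case marks mismatches and the spacer.
MDM2 (chr12:68808923-68808942, plus strand): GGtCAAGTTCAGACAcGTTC
AEN (chr15:88621306-88621325, plus strand): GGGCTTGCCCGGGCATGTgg
FAS (chr10:88991309-88991328, plus strand): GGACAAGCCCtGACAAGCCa
FDXR (chr17:74872996-74873025, minus strand): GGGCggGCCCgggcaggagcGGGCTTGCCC
A single half-site without mismatch also lay in a window of PLK2 and of SESN1, genes with no such pair.
PLK2 (chr5:58460209-58460218, minus strand): AGACTTGCTT
SESN1 (chr6:109009028-109009037, minus strand): GGACAAGTCT
Single half-sites without mismatch were present in 20% of the 25 genes and in 8.06% of all genes in the table. These are matches of letters, not measured binding, and a gene without a match may have an element outside its window. The 4 genes with a pair did not share a direction in the results that follow: AEN and FDXR were higher in Nvs after TMM scaling, FAS was lower and MDM2 was not called.

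The mod libraries held between 45637046 and 51369628 counts each, and the Nvs libraries between 41120058 and 44080808. Genes of the mitochondrial genome took 29.8% to 31.4% of the counts in mod and 51.8% to 53.3% in Nvs, which leaves fewer reads for nuclear genes in Nvs. Values were therefore scaled by TMM, which sets the typical gene near 0, while scaling by library total puts the median tested gene at -0.77 (log2). All 13 keratinocyte markers examined were tested, and their summed FPKM (fragments per kilobase of transcript and per 1e6 counted fragments) was 9480 to 10353 in mod and 8450 to 9196 in Nvs. The 4 fibroblast markers with a row summed to at most 0.0663 FPKM in any library. Melanocyte markers (4 of 6 with a row) summed to 1.22 to 1.48 FPKM in mod and 0.565 to 0.907 in Nvs, and leukocyte and endothelial markers (6 of 7) to 2.68 to 2.81 and 0.888 to 1.62. These sums are scaled by library total, on which the typical gene is at -0.77. The log2 ratio of the mean sums was -0.79 for the melanocyte markers, -1.02 for the leukocyte and endothelial markers and -0.17 for the keratinocyte markers. Single genes carry much of these sums. CD14 gave 2.60 to 2.73 FPKM of the leukocyte and endothelial sum in mod, and KRT14, KRT5 and SFN gave most of the keratinocyte sum. The keratinocyte markers did not move alike on this scale: KRT17 and SFN were higher in Nvs, KRT14 overlapped and the others were lower. The part of these markers in the results was not tested, and in bulk RNA fewer cells of a type and less RNA per cell cannot be told apart.

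After TMM scaling, 14 of the 30 tested p53 targets were higher in Nvs and 4 were lower, at an adjusted p under 0.05 in edgeR's quasi-likelihood test. Among all 14617 tested genes, 43.3% were called, 22.8% higher and 20.5% lower, so the members' share of higher calls (46.7%) lay above the background and that of lower calls (13.3%) below it. The members were chosen with earlier results of these data known, so these shares only describe the list. The median log2 fold change of the 30 genes was 0.30, against -0.01 for all tested genes, and values ran from -0.77 for SUSD6 to 2.23 for GDF15. The CPM values (TMM-scaled counts per 1e6) of both groups did not overlap for 20 of the 30 genes (66.7%), against 53.6% of all tested genes. Nvs lay above mod in 14 of them (27.0% of all tested genes did) and below it in 6 (26.7% of all). Scaling by library total moves all genes down together, leaving 4.03% of all tested genes called higher and 68.0% called lower. On that scale 3 of the 14 higher calls stayed higher (GADD45A, SERTAD1 and GDF15), 10 were not called, and FBXO22 was called lower. Of the 3337 higher calls among all genes, 17.7% stayed higher, 40.4% were not called and 41.9% were called lower. The 4 lower calls (SUSD6, SESN1, FAS and TNFRSF10B) stayed lower by library total, as 100% of the lower calls among all genes did, so that scale gives no check on them. Of the 12 p53 targets not called after TMM scaling, 11 were called lower by library total and 1, TNFRSF10A, was not called. Among all genes not called after TMM scaling, 66.9% were called lower on that scale.

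**Figure D1:**
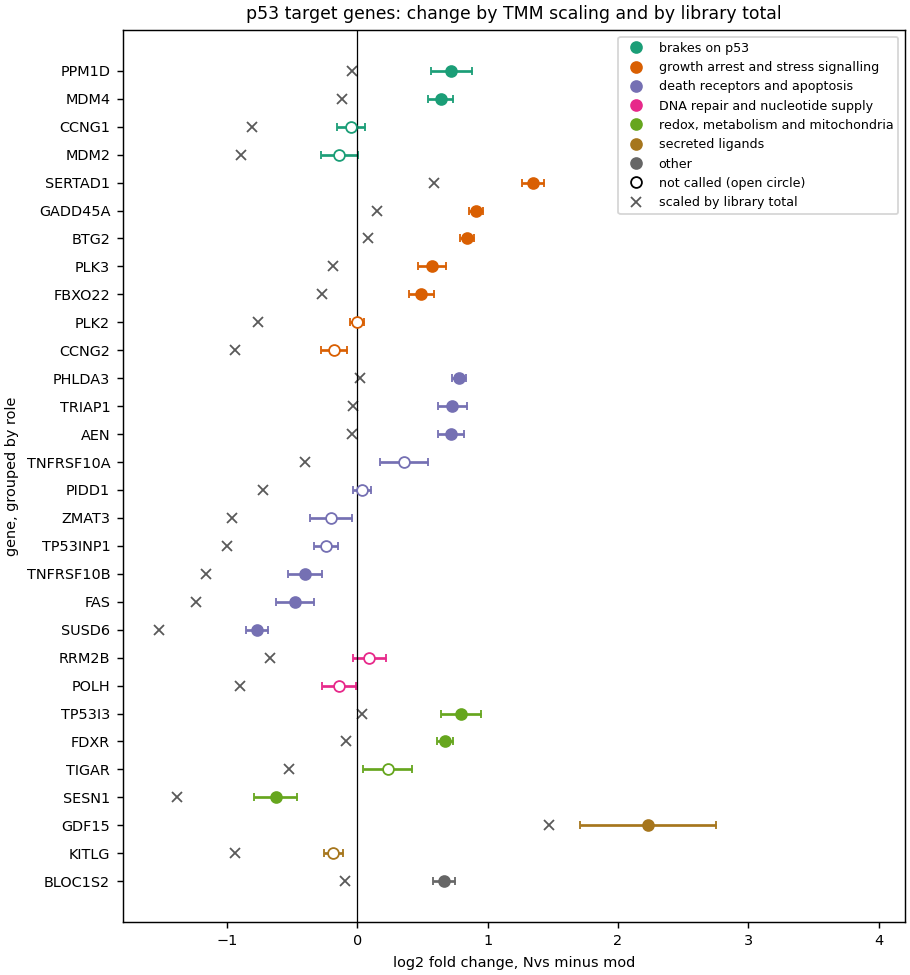
Log2 fold change, Nvs minus mod, of the 30 tested p53 targets, grouped by role; filled circles are called and open circles not called after TMM scaling, bars are standard errors, and crosses give the value scaled by library total. Higher calls run up to 2.23 for GDF15, and only GADD45A, SERTAD1 and GDF15 are also called higher by library total.

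Of the 4 genes that restrain p53, MDM4 and PPM1D were higher after TMM scaling and MDM2 and CCNG1 were not called. MDM2, the ubiquitin ligase that marks p53 for degradation and a gene with a half-site pair printed above, had 14.9, 17.4 and 19.3 CPM in mod and 17.5, 17.0 and 12.4 in Nvs. The groups overlapped, and the log2 fold change was -0.14 ± 0.14 SE (edgeR adjusted p = 0.465). By library total MDM2 was at -0.90 and called lower. MDM4, its relative that blocks the activation domain of p53, had 30.8, 33.3 and 27.9 CPM in mod and 53.4, 42.3 and 47.5 in Nvs. Each Nvs library stood above each mod library (0.64 ± 0.09, edgeR adjusted p = 0.000102), although by library total MDM4 was at -0.12 and not called. PPM1D, a phosphatase that removes activating phosphates from p53 and from its kinases, went from 5.69 ± 0.517 to 9.39 ± 1.06 CPM (SD, n = 3; 0.72 ± 0.15, edgeR adjusted p = 0.00189), or -0.04 by library total. CCNG1, cyclin G1, which brings a phosphatase to MDM2, was at -0.05 ± 0.11 with 22.4 ± 1.06 CPM in mod and 21.6 ± 2.87 in Nvs. It was at -0.81 by library total and called lower there.

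Genes grouped under growth arrest and stress signalling gave 5 higher calls among 7, with no lower call. The group does not hold arrest genes alone, and its higher calls include SERTAD1 and FBXO22, whose roles are given below. Beside the counts of this and of each other role stand the 22.8% higher and 20.5% lower calls among all tested genes. GADD45A, at chromosome 1, 67685061 to 67688338, encodes a small protein that links DNA damage to stress kinases and cell cycle arrest. It had 84.7, 83.2 and 81.1 CPM in mod and 151, 156 and 162 in Nvs. The groups were far apart compared with their spread, and the 1.88-fold difference (0.91 ± 0.05, edgeR adjusted p = 1.65e-08) was 0.15 by library total and called there too (edgeR adjusted p = 0.0165). SERTAD1, at chromosome 19, 40421592 to 40426025, a cofactor of CDK4 and of E2F-dependent transcription, had 21.9, 19.0 and 20.9 CPM in mod and 47.8, 54.9 and 54.9 in Nvs. It was 2.55-fold higher (1.35 ± 0.09, edgeR adjusted p = 4.02e-08), the second largest change among the 30 genes, and 0.59 by library total. BTG2, an antiproliferative partner of the mRNA deadenylase complex, had 86.2, 86.2 and 89.9 CPM in mod and 162, 158 and 150 in Nvs. Its difference of 0.84 ± 0.05 (edgeR adjusted p = 4.01e-08) shrank to 0.08 by library total and was not called there.

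The polo-like kinases PLK2 and PLK3, stress kinases of the same family, were not alike in these values, though the difference between them was not tested. PLK2 had 148, 160 and 153 CPM in mod and 161, 153 and 147 in Nvs, so the groups overlapped (-0.00 ± 0.05, edgeR adjusted p = 0.986). By library total PLK2 was at -0.76 and called lower. PLK3 went from 13.1 ± 1.02 to 19.5 ± 1.31 CPM with no overlap (0.57 ± 0.11, edgeR adjusted p = 0.000744), but was at -0.19 by library total. FBXO22, a substrate receptor of a ubiquitin ligase, was called higher after TMM scaling (0.49 ± 0.10, edgeR adjusted p = 0.000948) and lower by library total (-0.27, edgeR adjusted p = 0.0212). CCNG2, cyclin G2, was not called (-0.18 ± 0.10).

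**Figure D2:**
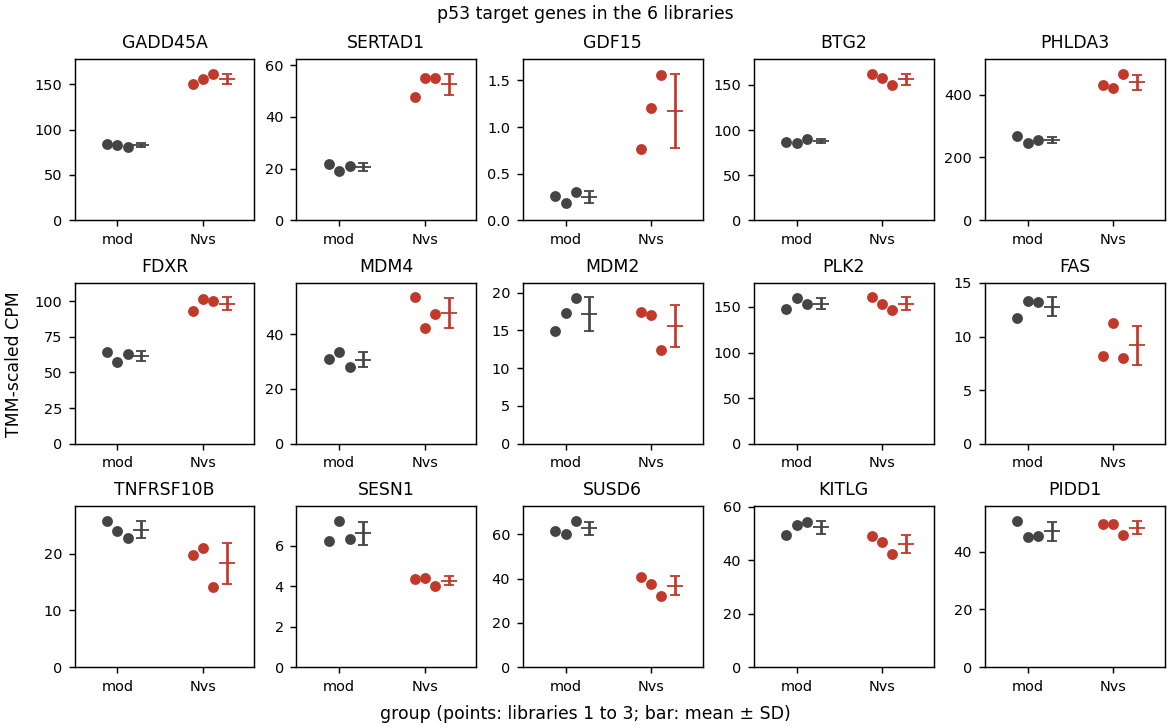
TMM-scaled CPM of 15 p53 targets in each library (points), with mean ± SD of the 3 libraries per group beside them; each axis starts at 0. GADD45A, SERTAD1, BTG2, PHLDA3, FDXR and MDM4 lie higher in all Nvs libraries, SUSD6 and SESN1 lower, and MDM2, PLK2 and PIDD1 overlap; by library total only GADD45A and SERTAD1 of those named are called higher.

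The death receptors and apoptosis genes split, with 3 higher, 3 lower and 4 not called of 10 tested. FAS, the receptor of FAS ligand, had 11.7, 13.3 and 13.3 CPM in mod and 8.21, 11.3 and 8.00 in Nvs (-0.48 ± 0.15, edgeR adjusted p = 0.0177). TNFRSF10B, a receptor for the ligand TRAIL, had 25.8, 23.9 and 22.8 CPM in mod and 19.8, 20.9 and 14.1 in Nvs (-0.40 ± 0.13, edgeR adjusted p = 0.0246). All Nvs libraries of both genes lay below all mod libraries, with the third Nvs library the lowest in each. Their calls were not firm: without mod replicate 2, mod replicate 3, Nvs replicate 1 or Nvs replicate 3 the adjusted p of FAS was 0.0640, 0.0595, 0.0650 and 0.0613. That of TNFRSF10B was 0.0956 without mod replicate 1, 0.0583 without mod replicate 2 and 0.0594 without Nvs replicate 3, where its log2 fold change was -0.25. TNFRSF10A, the other TRAIL receptor on the list, had 5.51, 5.07 and 6.28 CPM in mod and 5.63, 7.71 and 8.27 in Nvs and was not called (0.36 ± 0.18, edgeR adjusted p = 0.132; -0.40 by library total). These receptors are paralogs, and how reads that match several places were counted is not stated, so the split of reads between them is uncertain.

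SUSD6, a p53-responsive membrane protein with growth-suppressing activity, was the lowest of the 30. It had 61.4, 60.3 and 66.2 CPM in mod and 40.8, 37.4 and 32.1 in Nvs, a 1.70-fold fall (-0.77 ± 0.08, edgeR adjusted p = 7.44e-06), and stood at -1.53 by library total. The gene lies at chromosome 14, 69611596 to 69715142, and is among the longest on the list. In the opposite direction, PHLDA3, which competes with AKT for membrane lipids and so restrains survival signalling, had 267, 247 and 254 CPM in mod and 431, 421 and 466 in Nvs. Its difference of 0.78 ± 0.06 (edgeR adjusted p = 1.23e-07) came to 0.02 by library total. AEN, a nuclease of apoptotic DNA breakdown whose half-site pair is printed above, went from 13.9 ± 0.654 to 22.9 ± 1.43 CPM (0.72 ± 0.10, edgeR adjusted p = 6.42e-05, and -0.04 by library total). TRIAP1, a small inhibitor of apoptosis, went from 12.2, 14.4 and 12.0 CPM in mod to 22.6, 21.7 and 19.7 in Nvs (0.73 ± 0.11, edgeR adjusted p = 0.000136; -0.03 by library total). The higher calls therefore hold both an inhibitor and a promoter of cell death.

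TP53INP1, a stress protein of apoptosis and autophagy, narrowly missed the threshold at -0.24 ± 0.09 (edgeR adjusted p = 0.0519), with all Nvs libraries (20.1 to 23.3 CPM) below all mod libraries (24.3 to 26.9). ZMAT3, an RNA-binding regulator of splicing, was at -0.20 ± 0.16 and its groups overlapped. PIDD1, the scaffold of the PIDDosome that activates a caspase, had 47.1 ± 3.22 CPM in mod and 48.3 ± 2.30 in Nvs (0.04 ± 0.07; -0.72 by library total). In GENCODE release 29 PIDD1 overlaps RPLP2 on the other strand, a ribosomal protein gene that went from 260 to 569 CPM. Of the 31 genes with a row, 10 overlap a protein-coding gene on the other strand, and although the labels describe strand-specific libraries, whether the counting used strand is not stated, so reads of such pairs cannot be told apart.

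Neither gene of DNA repair and nucleotide supply was called. POLH encodes the polymerase that copies past UV-induced pyrimidine dimers and is the gene lost in the variant form of xeroderma pigmentosum. It had 14.3, 12.5 and 12.9 CPM in mod and 12.5, 13.4 and 10.1 in Nvs (-0.14 ± 0.13, edgeR adjusted p = 0.411, and -0.90 by library total). RRM2B, the p53-induced subunit of ribonucleotide reductase, had 11.1 ± 1.02 and 11.9 ± 1.25 CPM (0.09 ± 0.13, edgeR adjusted p = 0.602; -0.67 by library total). Both groups overlapped for each gene.

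Among 4 tested genes of redox balance, metabolism and mitochondria, 2 were higher, 1 was lower and 1 was not called. FDXR, the ferredoxin reductase that feeds electrons to mitochondrial steroid and iron-sulphur cluster synthesis, had 64.1, 57.2 and 63.2 CPM in mod and 92.8, 101 and 100 in Nvs (0.67 ± 0.06, edgeR adjusted p = 1.74e-06; -0.08 by library total). TP53I3, a quinone oxidoreductase, went from 4.74 ± 0.263 to 8.23 ± 0.625 CPM without overlap (0.80 ± 0.16, edgeR adjusted p = 0.000982; 0.04 and not called by library total). SESN1, a sestrin that restrains mTORC1 signalling, had 6.23, 7.23 and 6.33 CPM in mod and 4.37, 4.42 and 4.01 in Nvs. It was 1.55-fold lower (-0.63 ± 0.17, edgeR adjusted p = 0.00806), and -1.39 by library total, and the call was lost with a trend on gene span removed (-0.39, edgeR adjusted p = 0.0794). TIGAR, which diverts glucose from glycolysis to the pentose phosphate pathway, was not called (0.23 ± 0.19; -0.53 by library total).

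GDF15, a secreted stress cytokine of the TGF-beta superfamily at chromosome 19, 18374731 to 18389176, had the largest fold change of the list at the lowest level of the tested genes. Its raw counts were 17, 12 and 18 in mod and 26, 38 and 52 in Nvs, or 0.255, 0.184 and 0.307 CPM against 0.763, 1.20 and 1.56. Every Nvs library stood above every mod library, with a wide spread within Nvs, and the fitted log2 fold change was 2.23 ± 0.52 (edgeR adjusted p = 0.00343) and 1.47 by library total (edgeR adjusted p = 0.0220). KITLG, the ligand by which keratinocytes signal to the receptor KIT on melanocytes, had 49.6, 53.1 and 54.3 CPM in mod and 49.1, 46.7 and 42.4 in Nvs. The groups did not overlap, and the difference of -0.18 ± 0.07 missed the threshold (edgeR adjusted p = 0.0539). BLOC1S2, a subunit of a complex for lysosome-related organelles, went from 21.1 ± 1.51 to 33.5 ± 0.441 CPM (0.66 ± 0.09, edgeR adjusted p = 3.09e-05; -0.10 by library total).

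Within the list, longer genes had lower fold changes. Spearman's rho between span and log2 fold change was -0.75 over the 30 genes and -0.35 over 14430 tested genes with a span in RefSeq, whose spans are used in this paragraph, given as a description since the genes share the same libraries. Of 9 targets under 10 kb, 8 were higher and PLK2 was not called, with a median of 0.80 against 0.29 for the 3948 tested genes of that size, of which 36.8% were higher and 8.00% lower. Of 7 targets of 10 to 30 kb, 3 were higher and 4 not called, with a median of 0.04, below the 0.09 of all tested genes in that class (27.5% higher, 14.3% lower). Of 12 targets of 30 to 100 kb, 3 were higher, 2 lower and 7 not called, with a median of -0.02 against -0.12. The pair over 100 kb, SUSD6 and SESN1, were both lower, at a median of -0.70 against -0.32, in a class where 39.2% of tested genes were lower and 7.04% higher. MDM4 and PPM1D, at 30 to 100 kb, were higher in a class where 13.8% of tested genes were called higher and 28.1% lower. When a smooth trend on span was taken out of each library, all 14 higher calls were kept, in a fit that called 20.3% of all tested genes higher and 18.3% lower. Among the lower calls SUSD6 stayed (-0.54), while SESN1 (-0.39, edgeR adjusted p = 0.0794), FAS (-0.37, edgeR adjusted p = 0.0585) and TNFRSF10B (-0.31, edgeR adjusted p = 0.0790) were not called. In that fit PLK2 (-0.27, edgeR adjusted p = 0.00284), CCNG2 (-0.35, edgeR adjusted p = 0.0154) and TP53INP1 (-0.27, edgeR adjusted p = 0.0333) became lower calls.

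**Figure D3:**
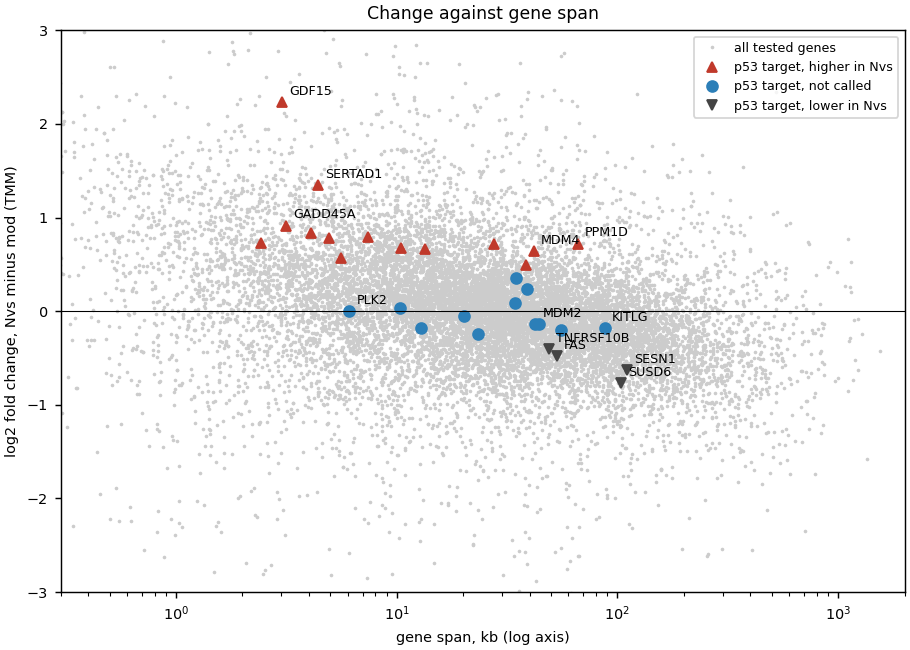
Log2 fold change after TMM scaling (Nvs minus mod) against gene span in kb on a log axis, for all tested genes (grey) and for p53 targets that were higher (upward triangles), not called (circles) or lower (downward triangles). The vertical axis ends at 3 in both directions; the 9 shortest targets hold 8 of the 14 higher calls, and SUSD6 and SESN1, over 100 kb, are both lower; by library total 3 of the 14 are called higher.

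Per transcript length, PHLDA3 was the most abundant of the 31 genes in both groups. On the FPKM scale, which the authors scaled by library total, its mean level was 102 in mod and 104 in Nvs, with overlapping libraries. GADD45A came second with 55.8 ± 1.69 and 62.1 ± 1.74 FPKM. PLK2 (42.8 ± 2.12) and BTG2 (41.1 ± 0.669) stood next in mod, where their libraries overlapped. In Nvs, BTG2 (43.4 ± 2.02) lay above PLK2 (25.3 ± 1.35) in every library. FDXR had rank 5 in both groups, at 22.1 ± 1.09 and 20.9 ± 0.903 FPKM. The largest move in the order was that of SUSD6, from rank 6 in mod (13.9 ± 0.534 FPKM) to rank 12 in Nvs (4.83 ± 0.611). In mod the lowest levels among tested genes were those of GDF15, FAS, TIGAR and PPM1D, all under 1 FPKM in both groups. The length behind the FPKM of FAS was 29433 bases, against 4253 bases of merged exons in GENCODE release 29, so its level per length depends strongly on the annotation. For 26 of the 31 genes these lengths agreed within 1.5 times, and POLH, TIGAR and PPM1D were the others with a longer one.

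**Figure D4:**
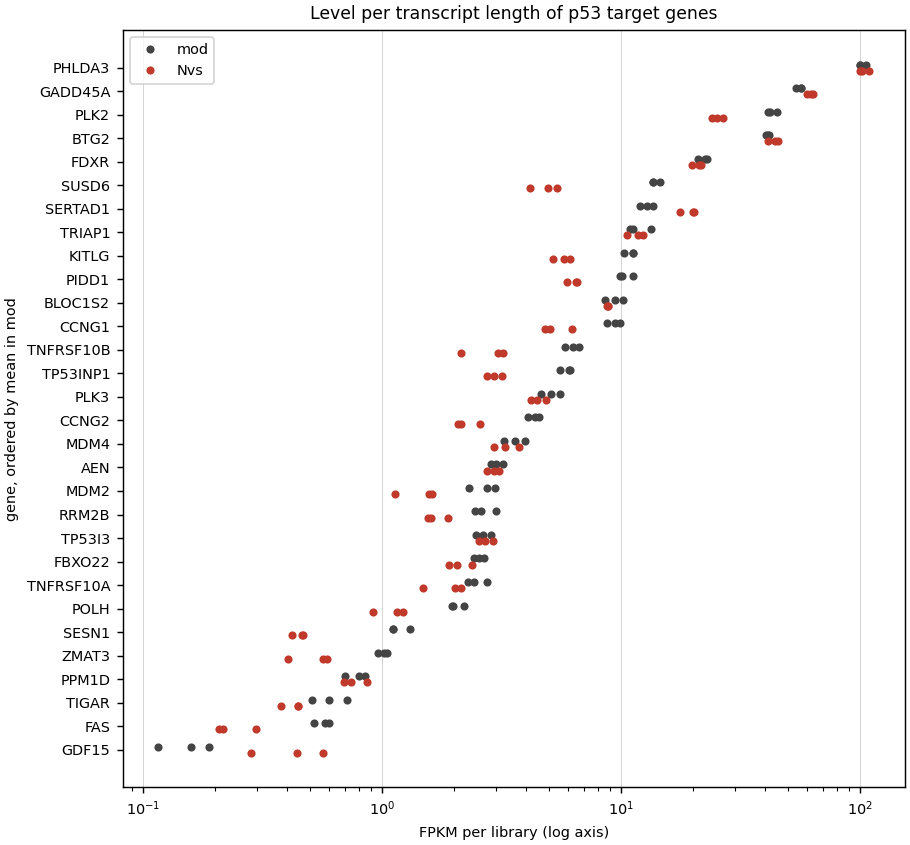
FPKM per library on a log axis for the 30 tested p53 targets, ordered by their mean in mod (mod dark, Nvs red; 3 points per group). PHLDA3 leads at 102 and 104 FPKM. SUSD6, KITLG and FAS are among the many that are lower in Nvs on this scale by library total, on which 68.0% of all tested genes are called lower. Only GADD45A, SERTAD1 and GDF15 lie higher in all Nvs libraries.

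Of 24 listed regulators and sensors of p53, all tested, 6 were higher, 10 were lower and 8 were not called, with a median of -0.05. The share higher (25%) was near the 22.8% of all tested genes, and the share lower (41.7%) stood beside 20.5%. Over 100 kb lie PRKDC, HUWE1 and ATR, which were lower, but also ATM, which was higher, and TP63, which was not called. Of all tested genes of that size, 39.2% were lower and 7.04% higher. With the span trend removed fewer regulators were called lower, as given further below. By library total 1 was higher and 19 were lower, where 68.0% of all tested genes were lower. TP63, a transcription factor that maintains the basal keratinocyte state, had 291 ± 4.44 and 305 ± 15.7 CPM and was not called (0.07 ± 0.05, edgeR adjusted p = 0.314). TP63 was at -0.69 by library total and at 0.46 with the span trend removed, and was called in both. The kinases of the DNA damage response did not all move one way. PRKDC (145 ± 6.12 to 81.8 ± 8.54 CPM, -0.83 ± 0.07) and CHEK2 (26.2 ± 0.881 to 14.1 ± 1.75 CPM, -0.89 ± 0.11) fell, as did the ubiquitin ligase HUWE1 (-0.58 ± 0.06). ATR, ATM and CHEK1, kinases of the same response, are named here after their values were seen. ATR fell from 31.3 ± 3.15 to 21.1 ± 1.07 CPM (-0.57 ± 0.10, edgeR adjusted p = 0.000306). ATM was at 0.28 (called higher, edgeR adjusted p = 0.0459, and -0.48 by library total) and CHEK1 at -0.05 (not called). RPL11, a ribosomal protein that binds MDM2 and thereby protects p53, rose from 461 ± 16.2 to 1069 ± 89.6 CPM (1.21 ± 0.06, and 0.45 by library total). RPL5, which acts with it, and RPS27L, a p53-induced ribosomal protein, were higher after TMM scaling (0.75 ± 0.06 and 0.71 ± 0.10), but at -0.01 and -0.05 by library total.

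Of 50 further p53 targets, 47 had a row and 41 were tested, with 19 higher, 7 lower and 15 not called and a median of 0.27. The shares were 46.3% higher and 17.1% lower, against 22.8% and 20.5% of all tested genes. This list too was chosen with earlier results of these data known, so its shares are a description only. By library total, 17.7% of all higher calls stayed higher, 40.4% were not called and 41.9% were called lower. Of the 19 here, 10 were called lower on that scale, 6 were not called and 3 were called higher. BBC3, a trigger of mitochondrial apoptosis, had 7.40, 8.86 and 8.14 CPM in mod and 44.9, 42.4 and 50.4 in Nvs (1.74 by library total). The stress factor ATF3 (2.25 ± 0.06, 1.49 by library total) and SFN, which encodes the epithelial checkpoint protein stratifin (1.14 ± 0.06, 0.39 by library total), were the other pair. CDKN1A, the p21 inhibitor of cyclin-dependent kinases, rose from 161 ± 4.07 to 298 ± 22.1 CPM, and by library total it missed the threshold at 0.13 (edgeR adjusted p = 0.0532). BAX, the pore-forming death effector, was called higher after TMM scaling (0.40 ± 0.06) and lower by library total (-0.36). Among the lower calls, APAF1, the core of the apoptosome, went from 10.0 ± 0.378 to 5.62 ± 0.648 CPM, SESN3, another sestrin, from 62.2 ± 2.99 to 46.4 ± 5.06 CPM, and ASCC3, a helicase of DNA alkylation repair, from 17.2 ± 0.182 to 12.4 ± 1.19 CPM. The lower call of ASCC3 was lost with the span trend removed (-0.05, edgeR adjusted p = 0.786).

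**Figure D5:**
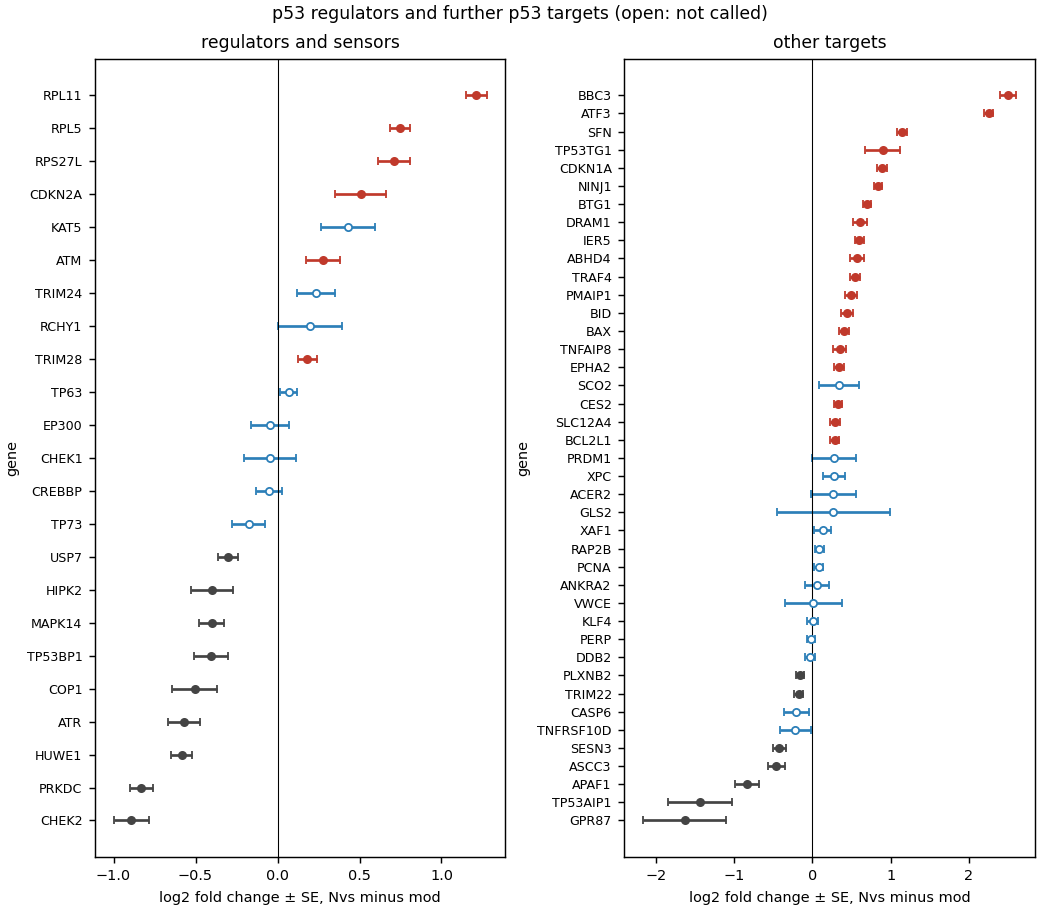
Log2 fold change ± SE after TMM scaling, Nvs minus mod, of p53 regulators and sensors (left) and 41 tested further p53 targets (right); filled points are called, open points not. Regulators run from -0.89 for CHEK2 to 1.21 for RPL11; BBC3, ATF3 and SFN lead the targets and are the 3 that are also called higher by library total.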

How the data were processed

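TRIzol-extracted RNA went through poly(A) selection into strand-specific (dUTP) libraries read from both ends, per the labels' protocols. The authors deposited gene counts per symbol and, in a second table, FPKM values for the same genes and libraries. The build is hg38 per the submitters' processing notes; the aligner, counter and annotation are not stated there. The count test was edgeR 4.0.16 in R 4.3.3 (filterByExpr, minimum count 10 and minimum total 15; TMM; quasi-likelihood F test with the group as sole term). Benjamini-Hochberg adjustment ran over all 14617 tested genes, with calls at 0.05 and no fold threshold. Each SE was obtained as |log2 fold change| / √F. Alternatives used DESeq2 1.42.0, and limma 3.58.1 on log2(FPKM + 1) and log2(FPKM + 0.1), which understates changes of low genes. The fit was tested on simulated counts in which few genes changed, equally in both directions, so that test gives no check on the scaling. Gene positions are those of GENCODE release 29. The members and lists were chosen with earlier results of these data known. All members are named or counted; of the regulators and further targets, TP63, CDKN1A, BBC3, BAX and the 3 called genes with the smallest adjusted p per direction are named; 1 gene that the naming rule lists, counted among the regulators, is not reported here.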

Additional observations from a re-analysis of the deposited data

How the results depend on the processing

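Most higher calls changed with the scaling, among all genes as among the p53 targets. By library total, 589 of all genes were called higher and 9938 lower, 3 and 16 of the p53 targets, 1 and 19 of the regulators and 3 and 27 of the further targets, with a median of -0.46 for the p53 targets. With limma on log2(FPKM + 1), which shares that scaling, the counts were 619 and 10100, 3 and 16, 1 and 19, and 3 and 28, with a median of -0.23. With log2(FPKM + 0.1) they were 620 and 10097, 3 and 14, 1 and 19, and 3 and 28 (median -0.41), and without a filter 556 and 9894, 3 and 14, 1 and 19, and 3 and 27 (median -0.23). The sign turned by library total for 12 of 30 p53 targets, 9 of 24 regulators and 24 of 41 further targets. Of the genes followed through every alternative, those whose sign turned by library total, by log2(FPKM + 0.1) and by log2(FPKM + 1), the last alike with and without the filter, were MDM4 (-0.12, -0.12 and -0.094), PPM1D (-0.038, -0.033 and -0.016), PLK3 (-0.19, -0.18 and -0.15), FBXO22 (-0.27, -0.26 and -0.19), TNFRSF10A (-0.40, -0.39 and -0.28), PIDD1 (-0.72, -0.71 and -0.64), AEN (-0.044, -0.041 and -0.032), TRIAP1 (-0.030, -0.025 and -0.023), RRM2B (-0.67, -0.64 and -0.45), FDXR (-0.085, -0.082 and -0.079), TIGAR (-0.53, -0.43 and -0.17), BLOC1S2 (-0.098, -0.092 and -0.084), TP63 (-0.69, -0.69 and -0.67), BAX (-0.36, -0.36 and -0.35), RPL5 (-0.014, -0.012 and -0.012) and RPS27L (-0.047, -0.048 and -0.035). The shift of the median gene to -0.77 by library total is part of that alternative's construction.

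With the span trend removed, 8 regulators were called higher and 6 lower, in place of 6 and 10, PIDD1 turned to -0.16 and KITLG to 0.015; the cause was not tested. Leaving out 1 library gave 2745 to 3317 higher and 2414 to 3075 lower genes, 14 to 15 higher and 2 to 5 lower p53 targets (2 without mod replicate 2 and without Nvs replicate 3), 3 to 6 and 9 to 11 regulators (3 higher without mod replicate 3), and 19 higher and 4 to 6 lower further targets (4 without mod replicate 1 and without Nvs replicate 1). The median of the p53 targets stayed between 0.25 and 0.35. Values near 0 turned sign for PLK2 (-0.0364 to 0.031), PIDD1 (-0.00599 to 0.0873), MDM2 (-0.239 to 0.00407) and CCNG1 (-0.163 to 0.0182). DESeq2, leaving out mitochondrial genes and no low-count filter each kept all 18 calls on p53 targets, and with a minimum count of 50 GDF15 was not tested. TP53INP1 and KITLG became lower calls in each of these 4 fits. All 4 set the typical gene near 0, as the main fit does, so they give no check on the scaling.

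Replicates were not shown to be paired: deviations of same-numbered libraries correlated between -0.02 and -0.01. With that number fitted as a replicate block, 5949 genes were called in place of 6328, and all 18 calls on p53 targets stayed. Counts below about 50 per library, as for GDF15, leave wide intervals.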
